A study of Mus musculus with 3 samples.

Results

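Expression of 10 genes of the secondary and tertiary granules of neutrophils was examined in murine TBLR1-RARα (TR) leukemia. The genes were chosen by name for the products they encode, with earlier results of these data known. All 10 were among the 16742 genes listed in at least 1 of 3 RNA-seq libraries. They were Camp, Ngp, Ltf, Lcn2, Chil3, Mmp8, Mmp9, Cd177, S100a8 and S100a9 (NCBI Gene IDs 12796, 18054, 17002, 16819, 12655, 17394, 17395, 68891, 20201 and 20202). Each library stood for 1 condition and pooled 3 mice of the C57BL/6 background, whose labelled age was 6 to 8 weeks. The control library held lin- bone marrow cells of wild-type mice, that is, cells left after beads removed those with mature lineage markers. The TR1 and TR9 libraries held GFP+ bone marrow cells sorted from TR leukemia mice. By the study's methods, wild-type lin- cells had been transduced with a retrovirus expressing TR and GFP from 1 transcript, and leukemias of primary mice NO.1 and NO.9 were then serially transplanted, the third generation being sequenced. TR1 and TR9 are therefore single leukemia lines, sorting for GFP leaves out host cells without the virus, and control cells carried neither the fusion nor the virus.

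Neutrophils acquire their granules in steps. Primary granules with Mpo and Elane form in promyelocytes, secondary (specific) granules in myelocytes and metamyelocytes, and tertiary (gelatinase) granules in band cells, each filled with whatever proteins are synthesised at that stage. Camp encodes the cathelicidin antimicrobial peptide, Ngp a cathelin-related neutrophilic granule protein, Ltf the iron binder lactoferrin and Lcn2 the siderophore binder lipocalin 2. Mmp8 and Mmp9 encode the neutrophil collagenase and gelatinase B, Chil3 the chitinase-like protein Ym1, and Cd177 a surface protein that is also stored in specific granule membranes. S100a8 and S100a9 encode the subunits of calprotectin, which is a cytosolic rather than a granule protein but accumulates over the same stages. Acute promyelocytic leukemia, the disease that RARα fusions cause, is characterised by a block around the promyelocyte stage, and the 10 genes are products of the stages after it. C/EBPε is the best known activator of secondary granule genes.

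The 250 bases upstream of the start of transcription are given here for 6 genes, because these pairs or contrasts carried the differences between TR1 and TR9 described later. They are Camp and Ngp, which were higher in TR9, Chil3, S100a8 and S100a9, which were higher in TR1, and Ltf, which stayed low in both. Sequences are those of RefSeq for GRCm38.p6, written 5′ to 3′ on the strand of the gene. Capitals mark matches on either strand to TTNNGCAA, a C/EBP core in which N is any base, and to the TATA box core, spelled TATAAA.
Camp (chr9:109849457-109849706, - strand): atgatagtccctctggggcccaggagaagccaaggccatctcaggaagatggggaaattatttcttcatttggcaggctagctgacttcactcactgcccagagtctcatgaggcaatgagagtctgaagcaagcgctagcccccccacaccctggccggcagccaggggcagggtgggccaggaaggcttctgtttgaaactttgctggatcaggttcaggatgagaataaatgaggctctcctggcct
Ngp (chr9:110419558-110419807, + strand): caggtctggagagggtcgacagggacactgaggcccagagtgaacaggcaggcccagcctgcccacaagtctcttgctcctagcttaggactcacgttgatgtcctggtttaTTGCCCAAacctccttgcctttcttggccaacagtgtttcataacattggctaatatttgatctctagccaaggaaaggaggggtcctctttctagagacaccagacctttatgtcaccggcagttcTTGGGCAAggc
Ltf (chr9:111019042-111019291, + strand): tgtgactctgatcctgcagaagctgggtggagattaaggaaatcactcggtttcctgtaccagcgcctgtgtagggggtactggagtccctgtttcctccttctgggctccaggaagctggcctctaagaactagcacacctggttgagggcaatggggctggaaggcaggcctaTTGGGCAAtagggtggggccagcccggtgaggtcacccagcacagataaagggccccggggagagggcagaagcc
Chil3 (chr3:106167565-106167814, - strand): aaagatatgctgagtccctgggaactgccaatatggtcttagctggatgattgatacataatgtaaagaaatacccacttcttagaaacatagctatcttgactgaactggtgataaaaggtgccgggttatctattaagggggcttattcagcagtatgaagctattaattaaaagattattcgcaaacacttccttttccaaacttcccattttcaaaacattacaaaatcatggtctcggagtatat
S100a8 (chr3:90668821-90669070, + strand): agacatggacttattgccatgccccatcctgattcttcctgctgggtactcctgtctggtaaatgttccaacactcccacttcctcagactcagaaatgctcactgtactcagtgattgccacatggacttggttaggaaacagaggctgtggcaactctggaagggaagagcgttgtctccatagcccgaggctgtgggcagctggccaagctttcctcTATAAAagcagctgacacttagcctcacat
S100a9 (chr3:90695722-90695971, - strand): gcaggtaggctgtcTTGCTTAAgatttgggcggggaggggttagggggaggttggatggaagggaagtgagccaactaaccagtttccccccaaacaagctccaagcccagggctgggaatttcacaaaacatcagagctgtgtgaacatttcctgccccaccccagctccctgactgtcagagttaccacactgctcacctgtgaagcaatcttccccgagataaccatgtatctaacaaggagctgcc
The 2 matches in Ngp began 138 and 11 bases before its start, the match in Ltf 75 bases and that in S100a9 236 bases before the start. S100a8 instead had TATAAA 30 bases before its start. Neither motif was found in Camp or Chil3. An entry was found for 9 of the 10 genes, all but Mmp9. TTNNGCAA was present in 5 of these 9 windows (Ngp, Ltf, Lcn2, Mmp8 and S100a9), and in 9.56% of the windows of the same length of all 32851 promoters in the table. The core GAGGAAG of PU.1 was in 3 of 9 windows (Lcn2, Mmp8 and S100a8) and 10.6% of all, the half-site AGGTCA of retinoic acid receptors in 1 of 9 (Ltf) and 14.02%, and TATAAA in 2 of 9 (Cd177 and S100a8) and 12.4%. The consensus of NF-κB was in 0 of 9 windows and 15.9% of all. Both strands were searched and no matches overlapped. In Ltf, AGGTCA began 46 bases before the start, 29 bases after the start of its C/EBP match. A match of letters is a description of the window and not a bound site.

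Depth was similar in the 3 libraries, with expected counts summing to between 5129662 and 5571409. An expected count is the number of fragments that RSEM assigned to a gene, and it was whole, within 0.001, for all 10 genes in all libraries. Erythroid, megakaryocyte and eosinophil, basophil or mast cell markers, 17 genes in all, were listed in control, and each of the 17 was downregulated in both TR1 and TR9. By the same rule, given below, 8.09% of all genes tested were upregulated and 13.02% downregulated in TR1, and 9.37% and 10.83% in TR9. The FPKM of the 3 lists summed to 1879, 888 and 1104 in control and to at most 8.22, 2.85 and 86.3 in a TR library. Alas2 and Pf4 were at 0 counts in both TR libraries. Among 6 genes for antigens that kits of lineage depletion target, 4 were upregulated in TR1 (Itgam, Ly6c1, Ly6c2 and Ptprc) and 2 in TR9 (Ly6c1 and Ly6c2). Counts are per gene, so those of Ptprc do not measure the single isoform (B220) that such kits target. The FPKM of the 6 genes summed to 631, 5959 and 6620 in control, TR1 and TR9. Itgam, whose product CD11b is 1 of these antigens, had 171, 921 and 199 counts in the control, TR1 and TR9 libraries. Control and TR cells thus differed in isolation as well as genotype, and the effects of the 2 cannot be told apart. Nor can fewer cells of a type and less RNA per cell be told apart in pooled bone marrow RNA.

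Granule genes were scarce in lin- control cells. Summed over the 10 genes, 336 counts were found in control, or 0.00612% of its counts (95% exact binomial interval 0.00548 to 0.00681), against 112014 in TR1, or 2.011% (1.999 to 2.022), and 37167 in TR9, or 0.725% (0.717 to 0.732). No gene had more than 72 counts in control. Set against the 9 listed primary granule genes, of which the sums were 47365, 197172 and 157941 counts, the 10 genes gave ratios of 0.00709, 0.568 and 0.235 in the same order. Both TR libraries therefore held more counts of the 10 genes, as a sum, per primary granule count than control. That sum includes the cytosolic calprotectin pair. Mmp9, the tertiary granule gene, added only 7, 35 and 12 counts to it in control, TR1 and TR9, so the ratios do not describe tertiary granules. Intervals cover counting error only and say nothing of the spread between mice.

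**Figure D1:**
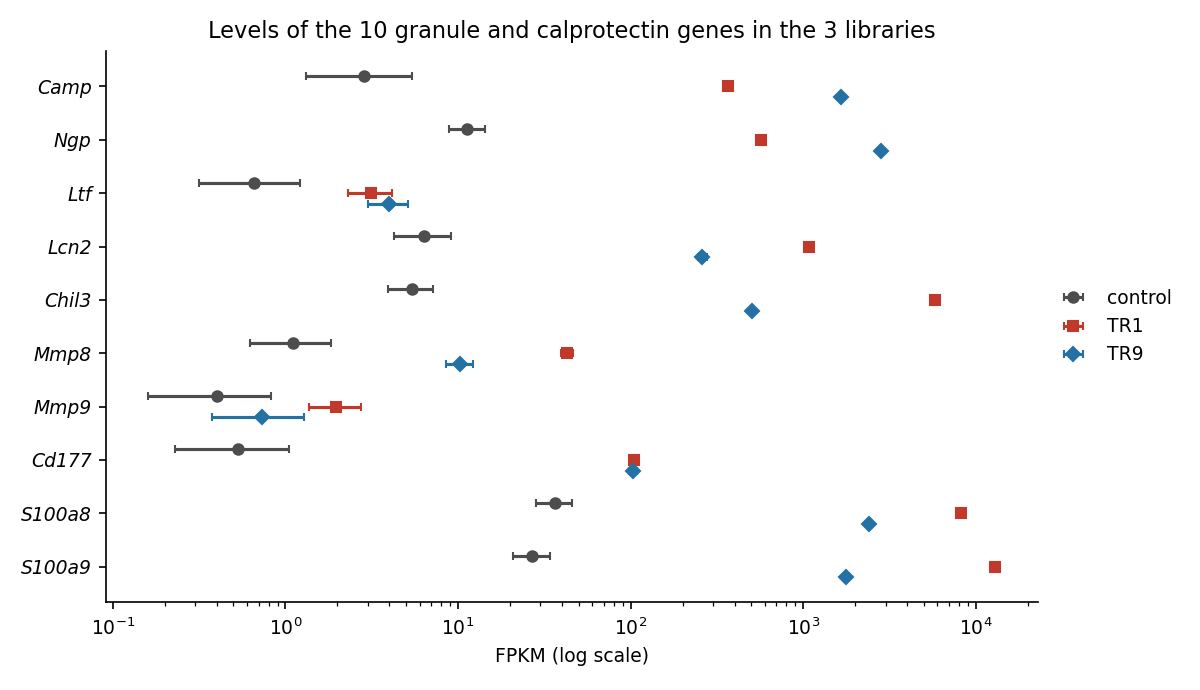
FPKM (log axis) of each of the 10 genes in the control, TR1 and TR9 libraries. Points are the 1 library of each condition and bars are 95% exact Poisson intervals of its counts, hidden where narrower than the point. Control levels lay between 0.40 and 36.2 FPKM, and the TR1 and TR9 points lay to the right of control for all 10 genes, with overlapping bars for Mmp9 in TR9.

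In TR1, all 10 genes were upregulated relative to control, with a median log2 ratio of 7.20 in FPKM, a level scaled for transcript length and library total. A gene was called where its false discovery rate (FDR) by an exact Poisson test was 0.001 or less and its log2 ratio was 1 or more in size. Of all 16282 genes tested, 8.09% were called higher and 13.02% lower by the same rule, and the median log2 ratio over them was −0.29. In TR9, 9 of the 10 genes were upregulated with a median of 6.05, whereas 9.37% of 16303 genes were called higher and 10.83% lower, with a median of −0.12. The exception was Mmp9. These tests compare the reads of single libraries, so that no difference has a replicate check, and both comparisons share the control library.

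Among the antimicrobial peptides and cathelin-related proteins, Camp rose from 9 counts in control to 1165 in TR1 and 4842 in TR9. Its log2 ratios to control, with 95% exact conditional intervals, were 6.99 (6.06 to 8.13) for TR1 and 9.16 (8.24 to 10.30) for TR9. Ngp had 72, 3696 and 16860 counts, with log2 ratios of 5.66 (5.32 to 6.02) and 7.97 (7.64 to 8.32). For both genes the order was control, TR1, TR9, and none of the intervals of the 3 levels overlapped. The change of Camp in TR9 was the 28th highest of 12436 genes with at least 10 counts in either library.

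The iron-related proteins differed from each other. Ltf, the prototypical secondary granule gene, had only 10, 48 and 56 counts in the control, TR1 and TR9 libraries, which is 0.66, 3.12 and 3.96 FPKM. Its log2 ratios were 2.24 (1.24 to 3.39, FDR by the exact Poisson test 1.98e-06) in TR1 and 2.58 (1.60 to 3.72, exact FDR 5.87e-09) in TR9. Thus Ltf was upregulated in both TR libraries, but on few counts. It remained a weakly expressed gene, ranking 9277th of the genes by FPKM in TR1 and 9179th in TR9. Both calls depended on the spread assumed between samples, as given in the next paragraph. Lcn2 had 29, 5044 and 1109 counts, with log2 ratios of 7.42 (6.90 to 8.00) and 5.35 (4.82 to 5.94). In FPKM, Lcn2 exceeded Ltf 9.64 times in control but 348 times in TR1 and 65.7 times in TR9.

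Of the metalloproteinases, Mmp8 counts were 15 in control but 591 in TR1 and 129 in TR9, with log2 ratios to control of 5.28 (4.54 to 6.13) and 3.20 (2.43 to 4.08). Mmp9, the gelatinase of tertiary granules, had 7, 35 and 12 counts. It was upregulated in TR1 at a log2 ratio of 2.29 (1.11 to 3.72, exact FDR 5.39e-05). In TR9 the log2 ratio of Mmp9 was 0.87 (−0.59 to 2.46, exact FDR 0.421), so that any difference from control was not detectable at this depth. Mmp9 was the lowest of the 10 genes by FPKM in every library, at 0.40, 1.96 and 0.73. With a biological coefficient of variation of 0.2 assumed in edgeR's exact test, the calls of Ltf and Mmp9 in TR1 were lost (FDR 0.00342 and 0.00803), and at 0.4 those of Ltf and Mmp8 in TR9 were lost too.

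Cd177 went from 8 counts in control to 1607 in TR1 and 1457 in TR9. Its log2 ratios to control were 7.63 (6.65 to 8.84) and 7.61 (6.62 to 8.82), close to each other, and both TR libraries stood far above control. Chil3 showed the largest change of the 10 genes, from 46 counts in control to 50254 in TR1, a 1072-fold difference in FPKM (log2 10.07, 9.66 to 10.52) that ranked 15th of 12378 genes. In TR9 it had 4031 counts and a log2 ratio of 6.55 (6.13 to 7.003). Chil3 alone took 0.902% of all counts in TR1.

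The calprotectin genes were the most abundant in control by FPKM. S100a8 counts were 72 in control but 16553 in TR1 and 4486 in TR9, with log2 ratios to control of 7.82 (7.49 to 8.18) and 6.06 (5.72 to 6.42). S100a9 had 68, 33021 and 4185 counts, with log2 ratios of 8.90 (8.56 to 9.27) and 6.04 (5.70 to 6.41). By FPKM, S100a9 was the most highly expressed gene of the whole TR1 library at 12864 FPKM, and S100a8 and Chil3 were the 4th and 6th. In TR9 the highest of the 10 was Ngp, ranking 7th of all genes at 2833 FPKM, followed by S100a8 (11th), S100a9 (29th) and Camp (35th).

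With TR1 and TR9 taken as 2 samples of 1 genotype and compared with the control library, edgeR's quasi-likelihood test called 1 of the 10 genes, Cd177 (log2 ratio 7.77, FDR 0.0350). This fit leaves 1 residual degree of freedom and takes the spread within the genotype for that of control. At FDR 0.05 it called 248 of 12498 genes, with 0.744% called higher. The other 9 genes had FDR values between 0.0924 (Camp) and 0.364 (Mmp9) in edgeR, with unadjusted p below 0.05 for 8 of them. DESeq2 called 8 of the 10 genes, all but Ltf and Mmp9, against 6.40% of all genes called higher. The edgeR fit without a filter on low counts called 0 of all 16696 genes, the 10 included, with 2774 genes at an unadjusted p below 0.05.

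TR1 and TR9 were therefore compared directly. Of 15706 genes tested, 4.34% were higher and 2.31% lower in TR9 than in TR1, with a median log2 ratio of 0.13. Among the 10 granule genes, 2 were higher in TR9, 5 were lower and 3 were not called, and the median was −1.59. Camp (log2 ratio of TR9 to TR1 2.18, 2.08 to 2.27) and Ngp (2.31, 2.26 to 2.36) were higher in TR9, by 4.52 and 4.96 times. The 5 lower genes were Chil3 (−3.52, −3.57 to −3.47), S100a9 (−2.86, −2.91 to −2.81), Mmp8 (−2.07, −2.36 to −1.80), Lcn2 (−2.06, −2.16 to −1.97) and S100a8 (−1.76, −1.81 to −1.72). Chil3 was thus 11.5 times and S100a9 7.25 times higher in TR1, and the fall of Chil3 was the 52nd largest of 11735 genes with at least 10 counts. Cd177 (−0.02, −0.13 to 0.08) and Ltf (0.34, −0.24 to 0.93) were not called, and the interval of Cd177 allows only a small difference in counting terms. The sign for Cd177 turned with the scaling, to 0.10 with TPM. Mmp9 was at −1.42 (−2.51 to −0.44) with an exact FDR of 0.0110, which missed the threshold. With edgeR's exact test and an assumed biological coefficient of variation of 0.4, none of the 10 genes was called between TR9 and TR1, and 13 of all genes were called higher and 2 lower.

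**Figure D2:**
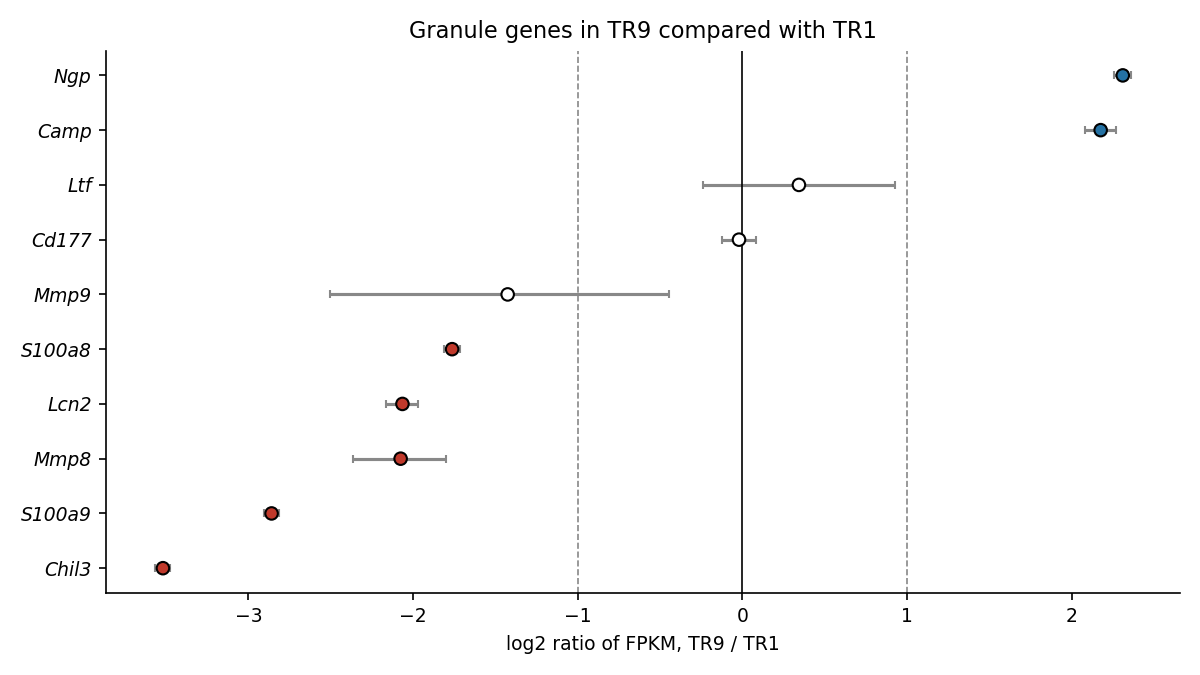
Log2 ratio of FPKM in TR9 to TR1 for each of the 10 genes, sorted by value, from 1 library each. Bars are 95% exact conditional intervals of the counts, filled points passed the exact Poisson test and a log2 ratio of 1 in size (dashed lines), and open points did not. Ngp and Camp lie above 2, Cd177 lies at −0.02, and Chil3 lies lowest at −3.52.

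The make-up of the granule transcripts differed accordingly. In TR1, Chil3 contributed 44.9% of the summed counts of the 10 genes, and Chil3 and S100a9 together 74.3%, whereas Camp and Ngp together gave 4.34%. In TR9, Ngp contributed 45.4%, Camp and Ngp together 58.4%, and Chil3 10.8%. Control lay between these, with 24.1% from Camp and Ngp and 13.7% from Chil3, although on 336 counts. The share of the calprotectin pair was 41.7% in control, close to the 44.3% of TR1, and 23.3% in TR9.

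**Figure D3:**
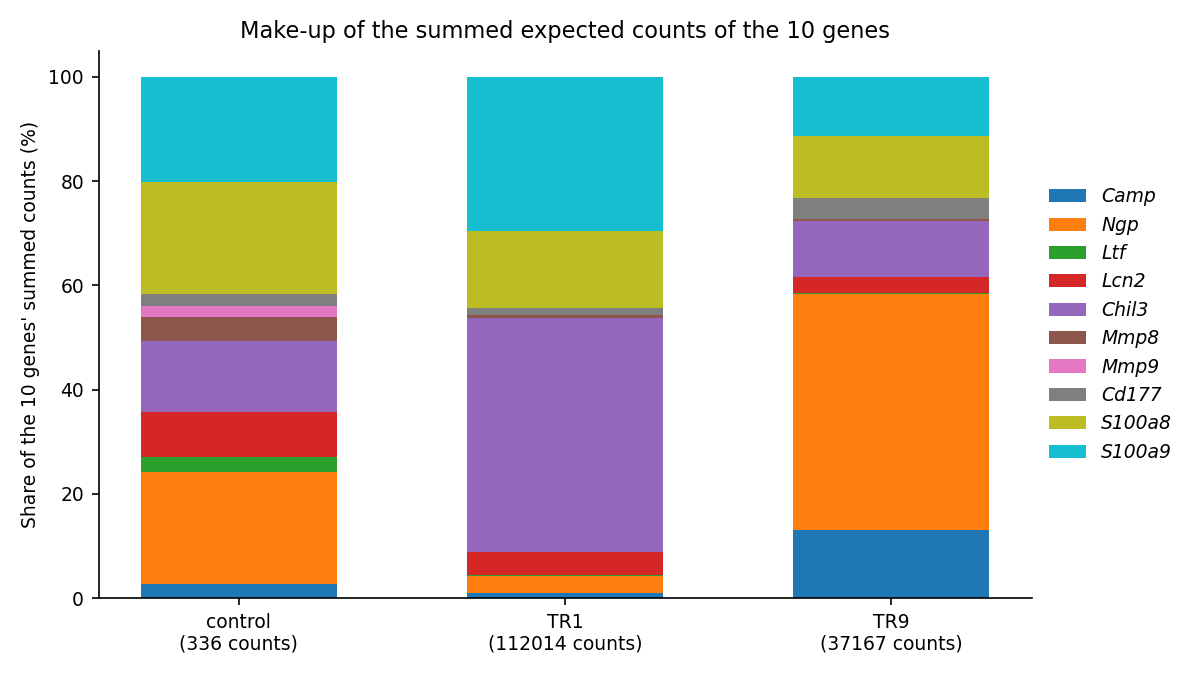
Share (%) of each of the 10 genes in the summed expected counts of the 10 genes, 1 stacked bar per library, with that sum under each bar. Chil3 fills 44.9% of the TR1 bar, and Ngp fills 45.4% of the TR9 bar. Ltf and Mmp9 are too small to see in either TR library.

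Ratios between 2 genes of the same library do not depend on the scaling of that library. Camp and Ngp kept nearly the same proportion in both leukemias, with 3.17 counts of Ngp per count of Camp in TR1 (2.97 to 3.39) and 3.48 in TR9 (3.37 to 3.60), against 8.0 in control (3.99 to 18.2). Their ratio of ratios between TR9 and TR1 was 1.10 (1.02 to 1.18). Chil3 per Camp went from 43.1 (40.7 to 45.8) in TR1 to 0.833 (0.798 to 0.868) in TR9, so that Camp relative to Chil3 was 51.8 times higher in TR9 (48.2 to 55.7). The 2 subunits of calprotectin also did not keep 1 proportion. S100a9 per S100a8 was 0.944 (0.668 to 1.33) in control, 1.99 (1.96 to 2.03) in TR1 and 0.933 (0.894 to 0.973) in TR9, a 2.14-fold difference (2.04 to 2.24) between the TR libraries.

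The exact conditional interval of the ratio of ratios was taken for all 45 pairs of the 10 genes. The value 1 lay outside it in 40 pairs between TR9 and TR1, in 37 between TR1 and control and in 36 between TR9 and control. The pairs share genes, the intervals cover counting error only, and the share over pairs of all genes was not computed. These counts therefore do not set the 10 genes apart from others. The 5 pairs that were not separated between TR9 and TR1 were Ltf with Cd177, and Mmp9 with each of Mmp8, Lcn2 and S100a8, and Lcn2 with Mmp8. Of these, only Lcn2 with Mmp8 had a narrow interval, 1.01 (0.822 to 1.24), both genes having fallen about 4-fold from TR1 to TR9 (4.18 and 4.21 times in FPKM). In the other pairs the low counts of Ltf or Mmp9 left wide intervals.

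**Figure D4:**
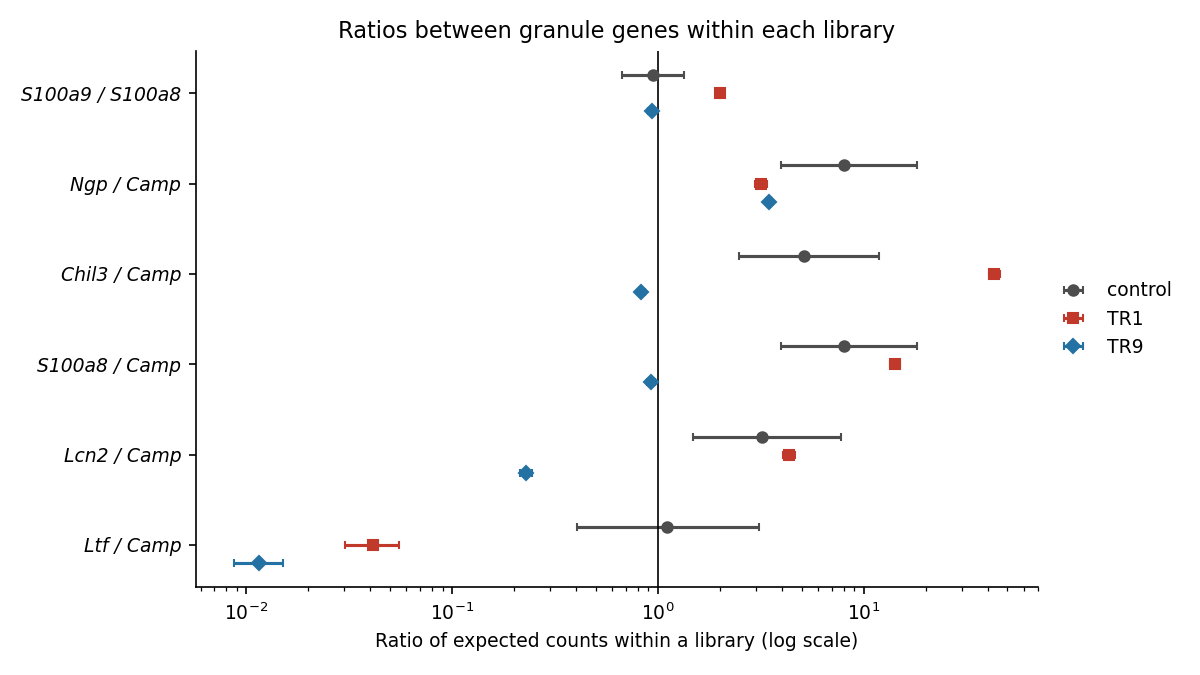
Ratio of expected counts of 2 genes within each library (log axis) for 6 pairs, with 95% exact conditional intervals, hidden where narrower than the point. The Chil3 to Camp ratio falls from 43.1 in TR1 to 0.833 in TR9, whereas the Ngp to Camp ratio stays at 3.17 and 3.48.

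By level per length, the order of the 10 genes in TR1 was S100a9, S100a8, Chil3, Lcn2, Ngp, Camp, Cd177, Mmp8, Ltf and Mmp9. In TR9 it was Ngp, S100a8, S100a9, Camp, Chil3, Lcn2, Cd177, Mmp8, Ltf and Mmp9. All 9 pairs of neighbours in each order were separated in counting terms, the closest being S100a9 over Camp in TR9 at 1.08 times (1.03 to 1.12). The lowest 4 genes were the same in both, and the order of the upper 6 differed. In control the order was S100a8, S100a9, Ngp, Lcn2, Chil3, Camp, Mmp8, Ltf, Cd177 and Mmp9, but 7 of the 9 neighbour pairs did not differ beyond counting error.

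Genes with the most similar profile over the 3 libraries were sought for the 10 genes among 11630 genes with at least 20 counts in a library, by the Euclidean distance between log2 shares of counts centred on each gene's mean, with counts below 3 set to 3. Only 3 libraries define such a profile, and many genes can come close. Ces1d, a carboxylesterase gene, was nearest to both Camp (distance 0.71) and Ngp (0.38), with 2, 223 and 849 counts in the 3 libraries. Cyp2a5 was nearest to Chil3 with 2, 2313 and 78 counts, and Olfml2b was nearest to S100a9 with 4, 1073 and 153. Gtsf1l (1.39, 561 and 126 counts) was nearest to Lcn2, and Slfn1 (0, 126 and 31.2) to Mmp8. H2-Q9 (0, 423 and 473) was nearest to Cd177, but it has close paralogs, among which RSEM may divide reads. Gm9733 (8, 40 and 46) and Efemp2 (11, 53 and 19) were nearest to Ltf and Mmp9. Within the 10 genes, Lcn2 and S100a8 were each other's nearest (0.50). So were Chil3 and S100a9 (0.83), Camp and Ngp (1.04), and Ltf and Mmp9 (1.42).

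Some of these genes share a chromosome region. S100a8 and S100a9 are neighbours with 0 protein-coding genes between them on chromosome 3. On chromosome 9, Camp and Ngp have 8 protein-coding genes between them and Ngp and Ltf 20, in the gene order of RefSeq. Of 18 flanking genes outside the set, 16 were listed, and 1 was upregulated and 1 downregulated in TR1, and 1 upregulated and 0 downregulated in TR9, shares near or below those of all genes (8.09% and 13.02% in TR1, 9.37% and 10.83% in TR9). The upregulated gene was Ceacam10 beside Cd177, with 2.1, 149 and 184 counts, and the downregulated gene was Ccrl2 beside Ltf, with 18, 0 and 8 counts. Nme6 and Cdc25a on either side of Camp had log2 ratios of 0.54 and −0.04 in TR1 and 0.41 and −0.32 in TR9, none of which passed the test.

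The wider granule program was examined in 20 listed genes of other granule proteins. In TR1, 13 of them were upregulated and 0 downregulated, with a median log2 ratio of 2.59, or 2.24 with counts below 3 set to 3. In TR9, 8 were upregulated and 0 downregulated, with a median of 1.15, or 0.68 with that floor. Over all genes, 8.09% were called higher and 13.02% lower in TR1, and 9.37% and 10.83% in TR9. Olfm4, which encodes olfactomedin 4 of a subset of specific granules, had 21, 10549 and 5620 counts, with log2 ratios of 8.94 (8.34 to 9.64) and 8.16 (7.55 to 8.85). Hp, the haptoglobin gene, had 269, 7445 and 4612 counts, with log2 ratios of 4.76 and 4.20. Orm1, which encodes the acute-phase protein orosomucoid, had 1, 136 and 327 counts. Compared directly, 1 of the 20 genes was higher in TR9 (Orm1) and 5 were lower (Adam8, Cybb, Itgam, Anxa1 and Retnlg). Over all genes, 4.34% were higher and 2.31% lower in that comparison, so that 1 higher gene of 20 was near the share of all genes. Anxa1, for annexin A1 of gelatinase granules, had 639, 5868 and 607 counts, so that TR9 (log2 ratio 0.02, −0.14 to 0.19) lay at the level of control. Retnlg, a resistin-like gene of mouse neutrophils, had 23, 134 and 21 counts.

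Genes of secretory vesicles and mature neutrophils were counted in the same way. Of 18 genes, with FPKM summing to 231, 1359 and 713, 12 were upregulated and 1 was downregulated in TR1, with a median of 2.53 (1.84 with the 3-count floor). In TR9, 7 were upregulated, 1 was downregulated and 10 were not called, with a median of 1.42 (0.89). Of all genes, 8.09% were called higher and 13.02% lower in TR1, and 9.37% and 10.83% in TR9. Il1r2, the decoy receptor for interleukin 1, had 2 counts in control but 1515 in TR1 and 47 in TR9. Wfdc21 had 4, 362 and 242 counts and Clec4d, a C-type lectin receptor gene, 17, 416 and 150. The gene that fell in both was Alpl, for alkaline phosphatase, with 29 counts in control and 0 in either TR library. Compared directly, 5 of 17 genes were lower in TR9 than in TR1 and 0 were higher, against 2.31% and 4.34% of all genes. The 5 were Cd14, Cxcr2, Il1r2, Clec4d and Clec4e.

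Of 9 listed primary granule genes, 8 were upregulated in TR1 and 6 in TR9, with medians of 2.26 and 1.72. The shares of all genes called higher were 8.09% and 9.37%. Ctsc, for the protease that activates the granule serine proteases, was the 1 gene downregulated in both, against 13.02% and 10.83% of all genes called lower in TR1 and TR9. Elane, for neutrophil elastase, had 4272, 45700 and 60820 counts, with log2 ratios of 3.39 and 3.93. Ctsg (cathepsin G) had log2 ratios of 2.37 and 3.27, and Cd63 had 2.28 and 2.38. Mpo (myeloperoxidase), with 31884, 109146 and 46495 counts, was upregulated in TR1 (1.75) and was at 0.64 in TR9, below the threshold of size. The primary granule transcripts thus rose over control by smaller ratios than most of the 10 genes, from a higher level in control.

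All 13 transcription factor genes chosen for granule genes or granulocyte stages were listed, and 8 were upregulated and 1 downregulated in TR1, and 9 upregulated and 0 downregulated in TR9. Their median log2 ratios were 1.46 and 2.06. Among all genes, 8.09% were called higher and 13.02% lower in TR1, and 9.37% and 10.83% in TR9. Cebpe had 71, 482 and 571 counts, with log2 ratios of 2.74 (2.38 to 3.12) and 3.10 (2.75 to 3.48). Gfi1, a repressor needed for granulocyte maturation, had 193, 2002 and 2553 counts (3.37 and 3.84). Cebpd (3.05 and 2.61), Cebpb (2.49 and 2.27), Cebpa (1.36 and 2.14), Klf5 (1.75 and 1.89) and Stat3 (1.46 and 1.19) were also upregulated in both. Spi1, which encodes PU.1, had 434, 733 and 1690 counts, and was upregulated in TR9 (2.06) but was at 0.73 in TR1.

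The transcription factors were also compared directly between the TR libraries. Of the 13, 3 were higher in TR9 (Irf8, Spi1 and Runx1), 1 was lower (Rara) and 9 were not called. The shares of all genes were 4.34% higher and 2.31% lower. The factors differed to unlike degrees. Cebpe differed by 0.37 (0.19 to 0.54) and Gfi1 by 0.47 (0.38 to 0.56), whereas Spi1 differed by 1.33, Runx1 by 1.02 and Rara by −1.59. Their part in the differences of the 10 genes was not tested. Irf8, which favours monocytes over granulocytes, had 1059, 39 and 644 counts, and was the 1 factor downregulated in TR1 (−4.79, −5.28 to −4.32). Its level differed by 4.17 (3.70 to 4.67) between TR9 and TR1, the largest difference of the 13 in size. Runx1, Myb and Cux1 had log2 ratios to control between −0.58 and 0.68 and were not called. Rara had 58.9, 1168 and 359 counts, and its log2 ratios of 4.30 and 2.71 cannot be told apart from reads of the retroviral transcript, which carries RARα sequence.

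**Figure D5:**
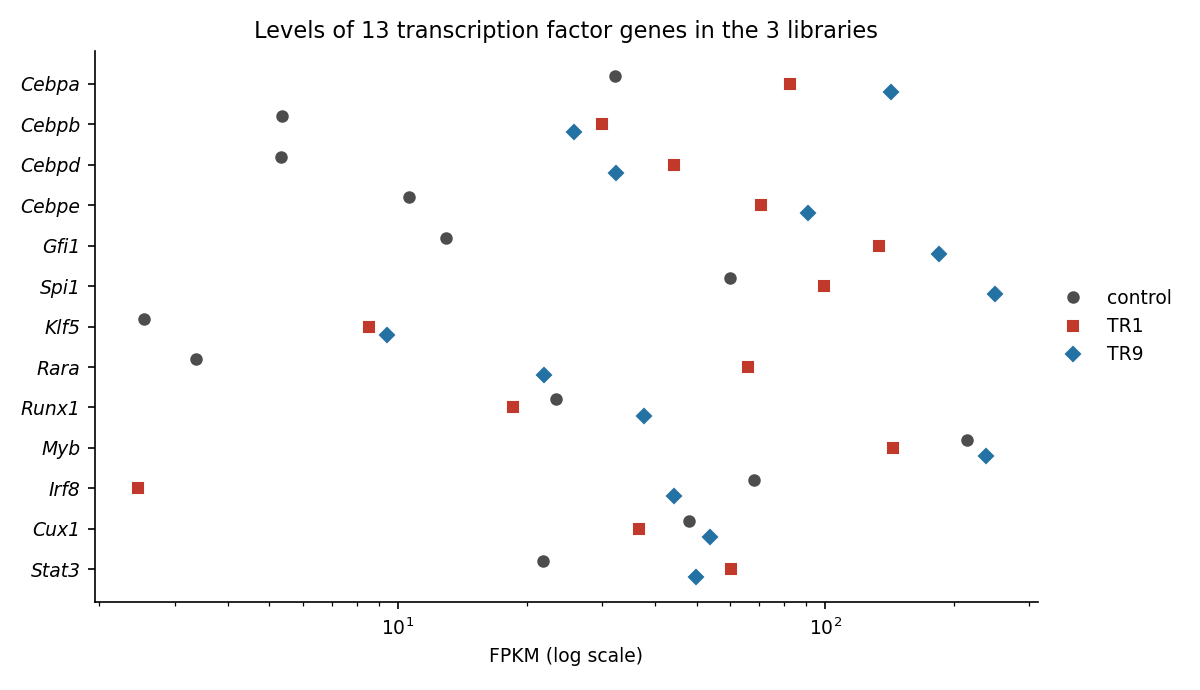
FPKM (log axis) of 13 transcription factor genes in the control, TR1 and TR9 libraries, 1 point per library. The points of Cebpe and Gfi1 in TR1 and TR9 lie near each other and to the right of control, whereas Irf8 in TR1 lies at 2.46 FPKM, far to the left of control at 68.0 and TR9 at 44.2.

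Close relatives of the 10 genes were examined next. Of 10 other listed S100 genes, 3 were upregulated in TR1 (S100a1, S100a6 and S100a11) and 4 in TR9 (the same 3 and S100a4). S100a10 was downregulated in TR9, which was near the share of all genes. That share was 13.02% lower and 8.09% higher in TR1, and 10.83% lower and 9.37% higher in TR9. S100a6 had 25, 270 and 70 counts and was lower in TR9 than in TR1 (−1.83). Among 15 other metalloproteinase and inhibitor genes, 1 was upregulated and 2 downregulated in each TR library, close to the shares over all genes. The upregulated genes were Mmp2 in TR1 and Timp2 in TR9, and Timp3, an inhibitor bound to the extracellular matrix, fell from 589 counts in control to 7.28 and 4.17. Of 4 other chitinase-like genes, Ctbs was upregulated in both (1.12 and 1.32), and Chit1, the chitotriosidase gene, was upregulated in TR9, with 0, 0 and 70 counts. Of 7 genes for receptors or partners of the products, 3 were upregulated in TR1 and 4 in TR9, and 0 were downregulated in either. Tlr4, a receptor for calprotectin, had 41, 281 and 166 counts (2.75 and 2.11). Lrp1, which takes up lactoferrin, had log2 ratios of 2.09 and 1.67, and Prtn3, whose protease is held by CD177 at the cell surface in humans and which is also a primary granule gene, had 1.29 and 1.88. Pecam1, a ligand of CD177, had 746, 875 and 4338 counts and was upregulated in TR9 alone, with the difference between TR9 and TR1 also called.

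Markers of monocytes and macrophages moved in both directions. Of 8 such genes, 4 were upregulated and 3 downregulated in TR1, and 3 upregulated and 4 downregulated in TR9. None was at 0 in any library. Over all genes, 8.09% were called higher and 13.02% lower in TR1, and 9.37% and 10.83% in TR9. Csf1r, the defining receptor of the lineage, had 510, 141 and 81 counts and fell in both, as did Mrc1, while Cd68 had 117, 879 and 298 counts and rose in both. Their FPKM summed to 684, 6332 and 6678 in the 3 libraries, most of it Ly6c2, which granulocyte precursors also express. Of 4 progenitor markers, Cd34 fell from 1039 counts to 83 and 57, Kit had 2115, 853 and 1684, Flt3 327, 792 and 126, and Ly6a 50.0, 145 and 434. Kit and Ly6a were higher and Flt3 lower in TR9 than in TR1, a comparison in which 4.34% of all genes were higher and 2.31% lower. B and T lineage markers summed to between 3.24 and 7.09 FPKM, with Cd79a at 0 counts in both TR libraries, and Vpreb1 was the only 1 of 6 called, in TR9. The part of cell composition in the levels of the 10 genes was not tested.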

How the data were processed

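RNA-seq (Illumina HiSeq, BGI) of 3 libraries was analysed, grouped by the labels. The authors filtered the reads, used BWA and Bowtie for alignment and RSEM for quantification, and the submitters' processing notes name mm9. The expected counts, which the authors deposited for each gene without normalization, had totals of 5488778 (control), 5571409 (TR1) and 5129662 (TR9). The deposited FPKM were scaled by the authors for gene length and library total. Gene length, also deposited, entered no test. Of 16742 NCBI Gene IDs, 16698 were matched to the RefSeq table of GRCm38.p6, used for names and gene order only. Promoter windows carry coordinates of that build.

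After rounding, expected counts of 2 libraries were tested with the conditional exact Poisson test, 2-sided, in scipy 1.17.1, with Benjamini-Hochberg adjustment over all genes listed in either library, at the study's thresholds (FDR 0.001, absolute log2 ratio 1). Log2 ratios were computed on FPKM after raising values below 0.01 to that floor. A count of 0 allows up to 3 counts, or 0.538 to 0.585 ppm. Intervals are 95% exact and cover counting error only. TR1 and TR9 together were compared with control by edgeR 4.0.16 (quasi-likelihood, TMM scaling, filterByExpr, FDR 0.05) in R 4.3.3, with DESeq2 1.42.0 as an alternative. Data were simulated with counting noise only, and 200 genes that were not scarce were changed by a log2 ratio of 2. The Poisson test recovered 191 for TR1 against control (15917 genes), 188 for TR9 against control (15918 genes) and 192 for TR9 against TR1 (15960 genes). It called 0 unchanged genes. The quasi-likelihood test recovered 199, with 13 unchanged genes called (12201 genes). No spread between samples was simulated, so these numbers do not measure false calls between mice.

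The 10 genes and the 15 gene lists were chosen with earlier results of these data known, and the TATA box was added to the motifs searched after the files were seen. The genes named were the 10 genes, the 13 transcription factors, from each other list up to 3 genes that TR1 and TR9 both called in 1 direction and that reached 10 FPKM in a library, taken by mean change, and the nearest profile of each gene. Some genes that this rule takes are not reported here. Others, such as Anxa1, Retnlg, Chit1, Pecam1, Alpl, Mpo and Itgam, and the genes listed by name beside small counts, were named after their values were seen. Alternatives were another FPKM floor (0.001), a pseudocount of 1, filters of 1 FPKM or 10 counts, 6 other scalings, edgeR's exact test assuming a biological coefficient of variation of 0.2 or 0.4, the Audic-Claverie test, an FDR of 0.05 and a log2 ratio of 2. Ly6g was not analysed here. Tables were handled in pandas 2.3.3 with numpy 2.4.6 under Python 3.11.15, and plots drawn in matplotlib 3.10.9.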

Additional observations from a re-analysis of the deposited data

Results flagged for a closer look

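For 7 of the 10 genes the change against control differed between the 2 TR lines, by an exact Poisson test of TR9 against TR1. The log2 ratio of TR9 to TR1 was 2.18 for Camp and 2.31 for Ngp, which were higher in TR9. It was −3.52 for Chil3, −2.86 for S100a9, −2.07 for Mmp8, −2.06 for Lcn2 and −1.76 for S100a8, which were lower in TR9. Each line was 1 pooled library, so the spread between mice of 1 line was not measured. Of all 15706 genes, 681 were higher and 363 lower in TR9 by the same test.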

How the results depend on the processing

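No paired analysis was possible because each condition had 1 library. The ratio of each gene in each comparison was taken again in every alternative setting. Of these repeats, 432 kept their direction and side of the threshold and 15 lost the call. Another 1 gained it (Mmp9 in TR9 against TR1 at an FDR of 0.05) and 1 turned. The repeats are not independent. The lower FPKM floor could not alter these ratios, the lowest FPKM of the 10 genes being 0.40. Filters altered only the FDR of the genes kept. Calls were lost only under edgeR's assumed variations and at a log2 ratio of 2. The ratio that turned was that of Cd177 in TR9 to TR1, 0.10 with TPM scaling against −0.02, neither called. With edgeR's exact test and an assumed variation of 0.4, 0 members were called higher and 0 lower in TR9 against TR1, in place of 2 and 5. That setting called 13 genes higher and 2 lower in all, its assumed spread being wider than counting error by construction. Between TR9 and TR1, S100a8 also lost its call at 0.2 (exact FDR 0.00152) and at a log2 ratio of 2. Against control, Ltf and Mmp9 lost their calls in TR1 at assumed variations of 0.2 (exact FDR 0.00342 and 0.00803) and 0.4, and Ltf and Mmp8 lost theirs in TR9 at 0.4. For both TR lines together, 1 of the 10 genes was called (248 of 12498 in all), 0 by edgeR without the filter on low counts (0 of 16696 in all, with 6 of the 10 at an unadjusted p below 0.05) and 8 with DESeq2 (1356 of 12490). Cd177 had an edgeR FDR of 0.219 without that filter, and the cause was not tested.

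A pseudocount of 1 FPKM moved log2 ratios of low genes by more than 1.5 times in fold, with no call lost. In TR1, Cd177 went from 7.63 to 6.11, Mmp9 from 2.29 to 1.08, Ltf from 2.24 to 1.31 and Mmp8 from 5.28 to 4.38. In TR9, Cd177 went from 7.61 to 6.09, Ltf from 2.58 to 1.58 and Mmp8 from 3.20 to 2.41, and Mmp9 in TR9 against TR1, not called, from −1.42 to −0.77.

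Counts over all genes moved by more than 1.5 times in some settings. At an assumed variation of 0.2, genes higher and lower numbered 657 and 992 in TR1, 717 and 830 in TR9, and 188 and 94 in TR9 against TR1. At 0.4 they were 170 and 347 in TR1 and 161 and 287 in TR9. At a log2 ratio of 2 they were 685 and 1133, 737 and 928, and 283 and 135. TMM scaling shifted the median log2 ratio of all genes by 0.25 in TR1, 0.11 in TR9 and −0.13 in TR9 against TR1, and TPM scaling by −0.23, −0.11 and 0.12. The split of higher and lower genes in TR1 was 1694 and 1591 with TMM and 1062 and 2918 with TPM, against 1317 and 2120. With 1 library per condition, the control counts of 7 to 72 limit the precision of every ratio to control, and no replicate spread is known.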
